A study of Mus musculus with 12 samples.

Results

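Chromatin accessibility was followed at 7 genes named as part of a marginal zone B cell signature outside the Notch pathway, namely Cd36, Myof, Asb2, Plxnd1, Fcrl5, Fcrl1 and Tm6sf1. A region belonged to one of these genes when the mm10 protein-coding gene it overlapped, or otherwise lay nearest to, was that gene, which gave 88 of 94161 regions (0.0935%). Of these, 67 lay within a gene body and 21 outside, the farthest 88.8 kb away from Myof. Cd36 held 19 regions, Myof 18, Fcrl5 13, Asb2 10, Tm6sf1 10, Plxnd1 9 and Fcrl1 9, and the median gene with a region held 3.0. The libraries formed 4 groups of 3, all ATAC-seq of 10000 unstimulated spleen cells from female C57BL/6J mice: LSD1 knockout marginal zone B cells (MZB KO), LSD1 wild-type marginal zone B cells (MZB WT), LSD1 knockout follicular B cells (FoB KO) and LSD1 wild-type follicular B cells (FoB WT). LSD1 is a histone demethylase encoded by Kdm1a. The promoter or Cre that drove its deletion, the animals behind each library and any allele shared by the controls are not stated by the labels, so p-values measure the spread between libraries, which may be technical. All cells had been sorted as B220+ and negative for markers of T cells, myeloid cells, immature B cells and germinal centre B cells, Thy1.1, CD11b, CD93 and GL7 among them. MZB were in addition CD21hi, CD1d+ and CD23-, and FoB were CD21mid, CD23+ and CD1d-. The question was whether MZB without LSD1 keep the accessibility that sets these genes apart from FoB.

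Marginal zone B cells sit at the border of the splenic white pulp, sample antigen from the blood and respond quickly with antibody, whereas follicular B cells recirculate and enter germinal centres. ATAC-seq uses the Tn5 transposase to cut and tag open chromatin, so the reads over a region measure how accessible its DNA is. Open regions at a start site mark promoters, and open regions within or around a gene often mark enhancers. Among the genes followed here, Cd36 encodes a scavenger receptor and fatty acid transporter, Myof a ferlin that acts in membrane fusion and repair, and Asb2 the substrate-binding part of a ubiquitin ligase. Plxnd1 encodes a plexin that binds semaphorins, and Fcrl5 and Fcrl1 encode Fc receptor-like proteins of the B cell surface that tune signalling by the B cell receptor. Tm6sf1 encodes a multi-pass membrane protein of lysosomes.

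Reads over the listed regions numbered 3169966 to 10375328 per library, and a level is given as reads in a region after scaling each library to 1000000 such reads (rppm), so that 3 reads, taken as the detection floor, stand for 0.289 to 0.946 rppm. The floor covers counting error only. Each level averages over the sorted cells, so that more cells open at a region and more opening per cell cannot be told apart. The region at Kdm1a had 18.9 to 29.7 rppm in MZB KO, 16.5 to 28.5 in MZB WT, 20.5 to 20.6 in FoB KO and 21.2 to 24.9 in FoB WT. Which part of Kdm1a was deleted is not stated by the labels, so this level does not check them. Of 83 tested regions at 5 marginal zone markers (Cr2, Cd1d1, Cd9, S1pr3 and Dtx1), 44 were called higher and 6 lower in MZB WT than in FoB WT. The shares over all tested regions were 24.2% and 11.4%. Cr2 encodes CD21 and Cd1d1 encodes CD1d, and both proteins were used in the sort.

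The promoters of 6 of the 7 genes were found in the RefSeq table for GRCm38.p6, which gives 250 bases before to 50 bases after each start site. Tm6sf1 is named only. Of the 7 windows, 2 belong to Asb2. The 4 below are shown because the start sites of these genes are set against other regions of the same gene further on. Capitals mark matches, on either strand, to 7 short motifs: GGGCGG (GC box of Sp and KLF factors), TGGGAA (RBPJ core), CCGGAAG (ETS), TGTGGTT (RUNX), CACGTG (E box), CCAAT and TATAAA. No motif contains another. Positions are chr5:17835847-17836146 (minus strand) for Cd36, chr19:38043528-38043827 (minus strand) for Myof, chr6:115994956-115995255 (minus strand) for Plxnd1 and chr3:87435532-87435831 (plus strand) for Fcrl5, each written 5′ to 3′ in the direction of transcription.
Cd36: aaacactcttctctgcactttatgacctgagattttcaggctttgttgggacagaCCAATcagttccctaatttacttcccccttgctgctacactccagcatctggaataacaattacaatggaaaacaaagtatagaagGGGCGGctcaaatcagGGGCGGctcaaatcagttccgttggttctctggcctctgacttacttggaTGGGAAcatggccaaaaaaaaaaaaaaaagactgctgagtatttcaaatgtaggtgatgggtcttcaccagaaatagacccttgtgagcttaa
Myof: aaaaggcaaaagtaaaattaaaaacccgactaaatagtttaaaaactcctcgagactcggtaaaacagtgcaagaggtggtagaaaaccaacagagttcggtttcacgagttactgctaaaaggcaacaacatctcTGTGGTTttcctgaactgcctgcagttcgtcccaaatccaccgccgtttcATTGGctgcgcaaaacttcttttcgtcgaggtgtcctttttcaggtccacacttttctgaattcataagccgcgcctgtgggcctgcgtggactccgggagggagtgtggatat
Plxnd1: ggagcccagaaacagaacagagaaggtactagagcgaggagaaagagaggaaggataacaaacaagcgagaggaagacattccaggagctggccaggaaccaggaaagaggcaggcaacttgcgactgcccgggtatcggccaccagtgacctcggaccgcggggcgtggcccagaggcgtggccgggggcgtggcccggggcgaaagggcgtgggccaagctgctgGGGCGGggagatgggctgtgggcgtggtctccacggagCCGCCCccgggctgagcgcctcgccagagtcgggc
Fcrl5: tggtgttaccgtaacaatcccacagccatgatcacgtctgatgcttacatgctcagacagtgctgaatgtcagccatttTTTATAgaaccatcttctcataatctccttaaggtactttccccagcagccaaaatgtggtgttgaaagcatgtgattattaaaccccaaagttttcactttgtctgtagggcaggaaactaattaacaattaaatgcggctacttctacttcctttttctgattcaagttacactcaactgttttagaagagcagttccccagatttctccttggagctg

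The Cd36 window held 2 GC boxes, 1 RBPJ core and 1 CCAAT box, and the Myof window 1 RUNX motif and 1 CCAAT box. The Plxnd1 window held 2 GC boxes and the Fcrl5 window 1 TATAAA. Over 32851 promoters of the same length, GGGCGG occurred in 35.7%, CCAAT in 37.4%, TGGGAA in 25.6%, TATAAA in 13.6%, CCGGAAG in 8.86%, CACGTG in 7.15% and TGTGGTT in 5.27%. Matches of this kind are descriptions of the letters and not binding sites. The Plxnd1 window was the richest of the 7 in G and C, at 67% with 23 CpG dinucleotides, against medians of 52.7% and 7 over all promoters, of which 14.4% had at least this share of G and C and 21.5% at least this many CpG. The Fcrl5 window had 40.7% G and C and 3 CpG, that of Cd36 43.0% and 3, that of Fcrl1 42.0% and 4, and that of Myof 46.3% and 15.

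In wild-type cells, 5 of the 7 genes were more accessible in MZB than in FoB when all regions of a gene were summed. The genes Plxnd1, Cd36, Myof, Tm6sf1 and Asb2 rose, by 1.97-fold at the most, while the Fc receptor-like genes Fcrl5 and Fcrl1 did not pass the test. Over 16289 genes tested in the same way, 24.6% were called higher and 23.2% lower in MZB WT. A sum grows with the number of regions, so levels are compared between groups and not between genes.

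For Cd36, the sums were 239.9, 230.0 and 250.7 rppm in MZB WT, against 118.8, 137.9 and 134.7 rppm in FoB WT. Every MZB WT library lay above every FoB WT library, with means of 240.2 ± 10.4 rppm and 130.5 ± 10.2 rppm (SD, n = 3 each). The log2 fold change was 0.88 ± 0.07 (SE; limma, adjusted p = 6.23e-10). For Plxnd1, the sums were 123.1, 111.1 and 127.2 rppm in MZB WT, against 66.3, 60.0 and 56.6 rppm in FoB WT. These groups did not overlap either, and the log2 fold change was 0.98 ± 0.07 (limma, adjusted p = 8.78e-11). Myof had 180.6, 174.1 and 168.6 rppm in MZB WT, against 135.8, 133.7 and 127.3 rppm in FoB WT, a log2 fold change of 0.40 ± 0.07 (limma, adjusted p = 3.36e-05). Asb2 had 160.0, 172.3 and 180.7 rppm in MZB WT, against 132.8, 152.4 and 136.1 rppm in FoB WT, a log2 fold change of 0.28 ± 0.07 (limma, adjusted p = 0.00101). For both genes the lowest MZB WT library lay above the highest FoB WT library, although the margin was narrower than at Cd36 and Plxnd1. Tm6sf1 had 130.4, 165.9 and 154.6 rppm in MZB WT, against 105.4, 129.5 and 128.9 rppm in FoB WT, with a log2 fold change of 0.31 ± 0.08 (limma, adjusted p = 0.00405). Its lowest MZB WT library was only just above the highest FoB WT library. A Tm6sf1 region that also lies within Hdgfl3 averaged 25.8 rppm in MZB WT and 6.06 rppm in FoB WT. The sums averaged 150.3 and 121.3 rppm, so most of the Tm6sf1 contrast came from this shared region.

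The Fc receptor-like genes differed from this pattern. Fcrl5 had 168.4, 169.9 and 168.2 rppm in MZB WT, against 158.8, 153.9 and 161.4 rppm in FoB WT. The groups did not overlap, but the log2 fold change was 0.10 ± 0.06 (95% interval -0.02 to 0.21; limma, adjusted p = 0.180). Fcrl1 had 136.0, 151.0 and 138.1 rppm in MZB WT, against 161.5, 152.5 and 153.3 rppm in FoB WT. All 3 MZB WT libraries were the lower ones, and the log2 fold change was -0.14 ± 0.06 (limma, adjusted p = 0.0664), which became an adjusted p of 0.0296 without MZB WT replicate 2.

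Knockout cells showed the same contrast at Cd36, Plxnd1, Myof and Tm6sf1, and showed it also at Fcrl5. Over all genes, 23% were called higher and 18.9% lower in MZB KO than in FoB KO. Cd36 had 210.4, 214.2 and 212.2 rppm in MZB KO, against 132.9, 122.6 and 102.2 rppm in FoB KO, with a log2 fold change of 0.84 ± 0.07. Plxnd1 had 131.3, 128.1 and 121.8 rppm in MZB KO, against 62.7, 68.0 and 69.4 rppm in FoB KO, with a log2 fold change of 0.93 ± 0.07. At both genes the libraries of the cell types stayed apart by a wide margin, and the adjusted p-values were 1.65e-09 and 2.89e-10 (limma). Myof had 158.8, 191.5 and 174.1 rppm in MZB KO, against 138.6, 125.4 and 119.2 rppm in FoB KO (log2 fold change 0.45 ± 0.07; limma, adjusted p = 7.96e-06). Tm6sf1 had 155.1, 154.9 and 147.8 rppm in MZB KO, against 130.0, 139.0 and 116.7 rppm in FoB KO (log2 fold change 0.25 ± 0.08; limma, adjusted p = 0.0191). In neither gene did the groups overlap. The Tm6sf1 region shared with Hdgfl3 averaged 24.1 rppm in MZB KO and 2.64 rppm in FoB KO. The Tm6sf1 sums averaged 152.6 and 128.5 rppm, so most of this contrast again came from that region. Fcrl5 had 174.9, 196.5 and 175.5 rppm in MZB KO, against 152.5, 150.4 and 141.3 rppm in FoB KO (log2 fold change 0.30 ± 0.06; limma, adjusted p = 1.77e-04).

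Asb2 and Fcrl1 did not pass the test between the knockout cell types. Asb2 had 187.8, 182.3 and 187.7 rppm in MZB KO, against 158.9, 187.0 and 176.1 rppm in FoB KO. These groups overlapped, and the log2 fold change was 0.10 ± 0.07 (95% interval -0.04 to 0.23; limma, adjusted p = 0.246). Fcrl1 had 150.2, 154.3 and 146.0 rppm in MZB KO, against 168.9, 159.6 and 148.9 rppm in FoB KO, also overlapping (log2 fold change -0.08 ± 0.06; limma, adjusted p = 0.295). In descending order of group means, Cd36 ran MZB WT, MZB KO, FoB WT and FoB KO, and Plxnd1 and Tm6sf1 ran MZB KO, MZB WT, FoB KO and FoB WT. Myof ran MZB KO (174.8 ± 16.3 rppm), MZB WT (174.4 ± 6.0), FoB WT (132.2 ± 4.5) and FoB KO (127.8 ± 9.9). For Plxnd1, Tm6sf1 and Myof the neighbours of the same cell type did not pass the test and their libraries overlapped. For Cd36 the MZB groups did not overlap, although their difference did not pass after adjustment (limma, adjusted p = 0.206). Asb2 ran MZB KO (185.9 ± 3.1 rppm), FoB KO (174.0 ± 14.2), MZB WT (171.0 ± 10.4) and FoB WT (140.4 ± 10.5), so that FoB KO lay between the MZB groups. Fcrl1 was highest in FoB KO (159.1 ± 10.0 rppm) and lowest in MZB WT (141.7 ± 8.1 rppm, SD, n = 3 each).

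**Figure D1:**
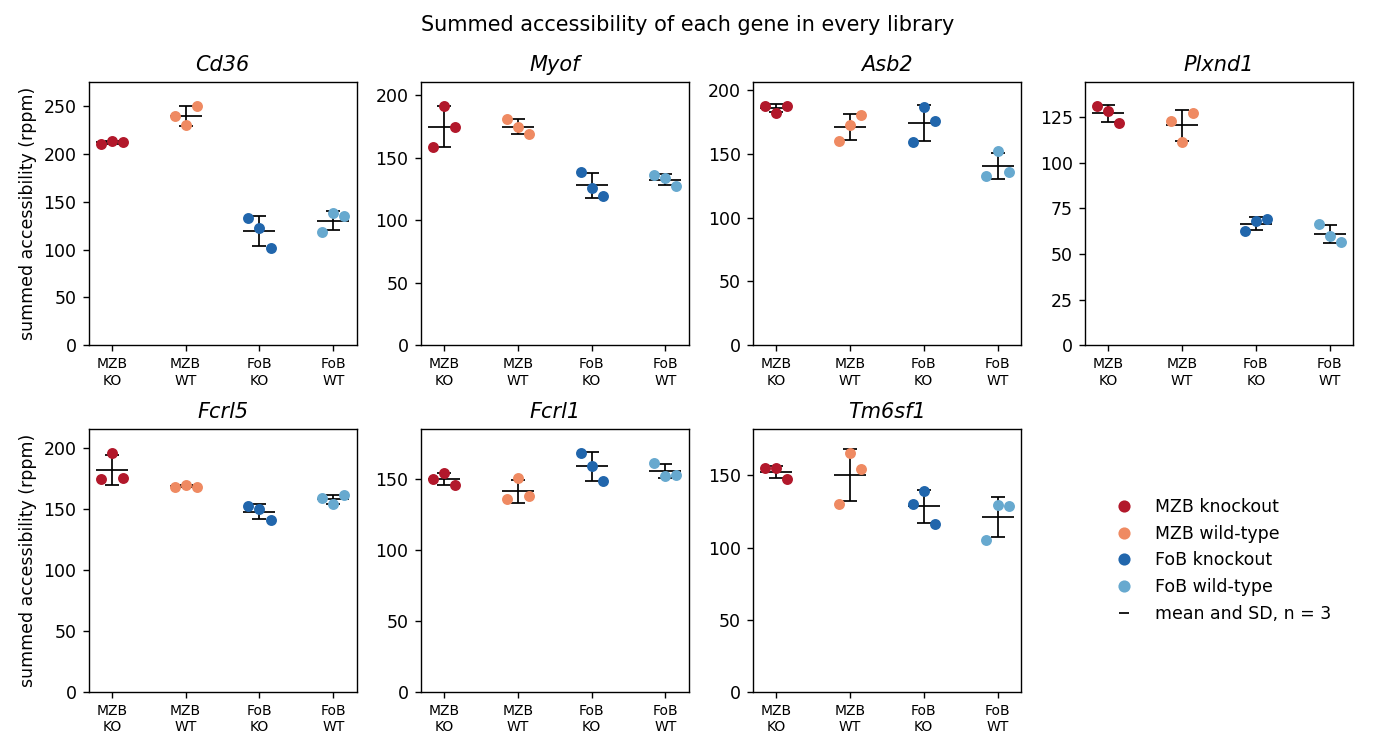
Summed accessibility in rppm (vertical axes, starting at 0) of each of the 7 genes in MZB KO, MZB WT, FoB KO and FoB WT, with a point per library, a bar for the mean and whiskers for the SD (n = 3). The 6 MZB libraries lie above the 6 FoB libraries for Cd36, with 210.4 rppm as the lowest MZB value. For Fcrl1 the 6 MZB and 6 FoB libraries overlap, although the MZB WT libraries all lie below the FoB WT libraries.

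Cd36 is also active in macrophages, megakaryocytes and endothelial cells, and Plxnd1 in endothelial cells, so markers of those cells were read in the same libraries. The regions of 9 myeloid and macrophage markers summed to 310.0 to 341.0 rppm in MZB KO, 317.4 to 331.2 in MZB WT, 232.8 to 251.1 in FoB KO and 236.4 to 244.2 in FoB WT. Of their 42 tested regions, 20 were called higher and 3 lower in MZB WT than in FoB WT, and Vcam1 had no region. For this and the other marker lists, the shares over all tested regions were 24.2% and 11.4%. The 4 endothelial markers summed to 310.4 to 318.8 rppm in MZB KO, 285.2 to 303.9 in MZB WT, 287.2 to 292.6 in FoB KO and 255.7 to 276.2 in FoB WT, with 13 regions called higher and 5 lower of 44. The 6 erythroid and megakaryocyte markers, of which Gata1 and Gp9 had no region, summed to 76.5 to 80.9 rppm in MZB KO, 66.1 to 68.7 in MZB WT, 60.4 to 64.7 in FoB KO and 62.2 to 66.0 in FoB WT. Here 4 of 12 regions were called higher and 1 lower. The sums of some other markers moved with the contrast as well, and those of others moved against it. Those of 4 dendritic cell markers were 399.1 to 412.0 rppm in MZB KO, 360.4 to 384.1 in MZB WT, 323.0 to 338.8 in FoB KO and 282.5 to 307.0 in FoB WT, with 19 of 44 regions called higher and 3 lower in wild-type MZB. The 5 B-1 cell markers summed to 502.8 to 530.9 rppm in MZB KO, 478.0 to 504.6 in MZB WT, 387.3 to 420.3 in FoB KO and 347.2 to 367.7 in FoB WT, with 18 of 49 regions called higher and 4 lower. At 5 markers of immature and transitional B cells 0 of 57 regions were higher and 31 lower, and at T cell markers 0 of 8 were called. At 4 NK cell markers 8 of 20 were higher and 5 lower, and at 4 plasma cell markers 17 of 74 were higher and 12 lower. Their sums nevertheless moved against the contrast. The NK cell sums were 301.7 to 307.3 rppm in MZB WT, below every FoB WT library. The plasma cell sums were 913.4 to 961.3 rppm in MZB WT and 968.6 to 1009.3 in FoB WT. In the knockout, the NK and plasma cell sums were also lower in every MZB library than in every FoB library. No marker gene with a region was at 0 in any library. The part of these cells in the Cd36 and Plxnd1 results was not tested.

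At single regions, the signature was unevenly spread along each gene. Of 87 tested regions, 40 (46%) were called higher and 4 (4.6%) lower in MZB WT than in FoB WT, where the shares over 89782 tested regions were 24.2% and 11.4%. In the knockout, 38 regions (43.7%) were higher and 4 (4.6%) lower in MZB than in FoB, against 23.2% and 9.47% of all regions. The median log2 fold change over the 87 regions was 0.48 in wild-type cells and 0.48 in knockout cells, beside 0.18 and 0.14 over all tested regions. At least a 2-fold rise was called at 25 regions in wild-type cells (16.1% of all regions) and at 23 in knockout cells (15.4% of all regions). The remaining region, at Myof (chr19:38010894-38011053), was too low to be tested. Lower calls in the knockout numbered 2 without MZB KO replicate 1 or 3 or without FoB KO replicate 1 or 2.

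These counts move with the scaling of the libraries. Over all regions in wild-type cells, 21757 were higher and 10269 lower in MZB with the deposited scaling, 13509 and 13802 under quantile normalisation, 18145 and 17052 with edgeR and TMM, and 13119 and 11920 with DESeq2. In the knockout the same pairs were 20846 and 8503, 12255 and 10851, 16475 and 14695, and 11848 and 9671. The median of all regions in wild-type cells was 0.18, -0.08, 0.05 and 0.05 under these 4 scalings. Among the 87 regions, 40 were higher and 4 lower as deposited, 26 and 5 under quantile normalisation, 35 and 12 with TMM, and 26 and 6 with DESeq2. In the knockout these were 38 and 4, 26 and 3, 31 and 7, and 25 and 4, so that higher calls outnumbered lower ones among the 87 under each scaling.

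By position in wild-type cells, 4 of the 6 regions over a promoter window were called higher, as were 27 of 52 within a gene body and 7 of 19 outside, with median log2 fold changes of 0.52, 0.58 and 0.26. Over all tested regions, 8.26% of those over a promoter window were called higher and 40.9% lower, with 28.7% and 7.42% in gene bodies and 23.1% and 8.12% outside. Tm6sf1 has no start site in the table, and 2 of its 10 regions were called higher and 1 lower (25.5% and 10.1% of all regions of genes without one). Level mattered to the background: of the 50 regions with a mean under 10 rppm, 25 were called higher and 1 lower (27% and 3.87% of all such regions), and of the 37 at 10 rppm or more, 15 were called higher and 3 lower (17.4% and 30.4%).

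Cd36 (gene ID 12491, chr5:17781690-17888959) was most open at its start site, chr5:17835589-17836129, the region over the promoter printed above. This region had 53.9, 53.0 and 48.8 rppm in MZB KO, 47.0, 50.2 and 54.7 rppm in MZB WT, 38.7, 30.7 and 22.6 rppm in FoB KO and 32.0, 33.4 and 28.2 rppm in FoB WT. Both MZB groups lay above both FoB groups, with a log2 fold change of 0.69 ± 0.13 in wild-type cells (limma, adjusted p = 4.26e-05) and 0.78 ± 0.13 in the knockout (limma, adjusted p = 7.67e-06). The contrast was greater at chr5:17857221-17857605, whose centre lies at -21517 bases from that start site (negative is upstream) and still inside the annotated span of Cd36. There the levels were 17.7, 22.7 and 24.5 rppm in MZB KO, 23.5, 21.5 and 25.2 rppm in MZB WT, 5.59, 4.74 and 4.32 rppm in FoB KO and 5.48, 5.49 and 5.25 rppm in FoB WT. The lowest MZB library (17.7 rppm) lay far above the highest FoB library (5.59 rppm), a 4.04-fold difference in wild-type cells (log2 fold change 2.01 ± 0.17; limma, adjusted p = 9.78e-12) and a 4.1-fold difference in the knockout (2.04 ± 0.17; limma, adjusted p = 9.10e-12). In all, 10 of the 19 Cd36 regions were called higher and 0 lower in wild-type MZB, and 11 and 0 in knockout MZB. For this and the other genes, the shares over all tested regions were 24.2% higher and 11.4% lower in wild-type cells. In the knockout they were 23.2% and 9.47%.

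**Figure D2:**
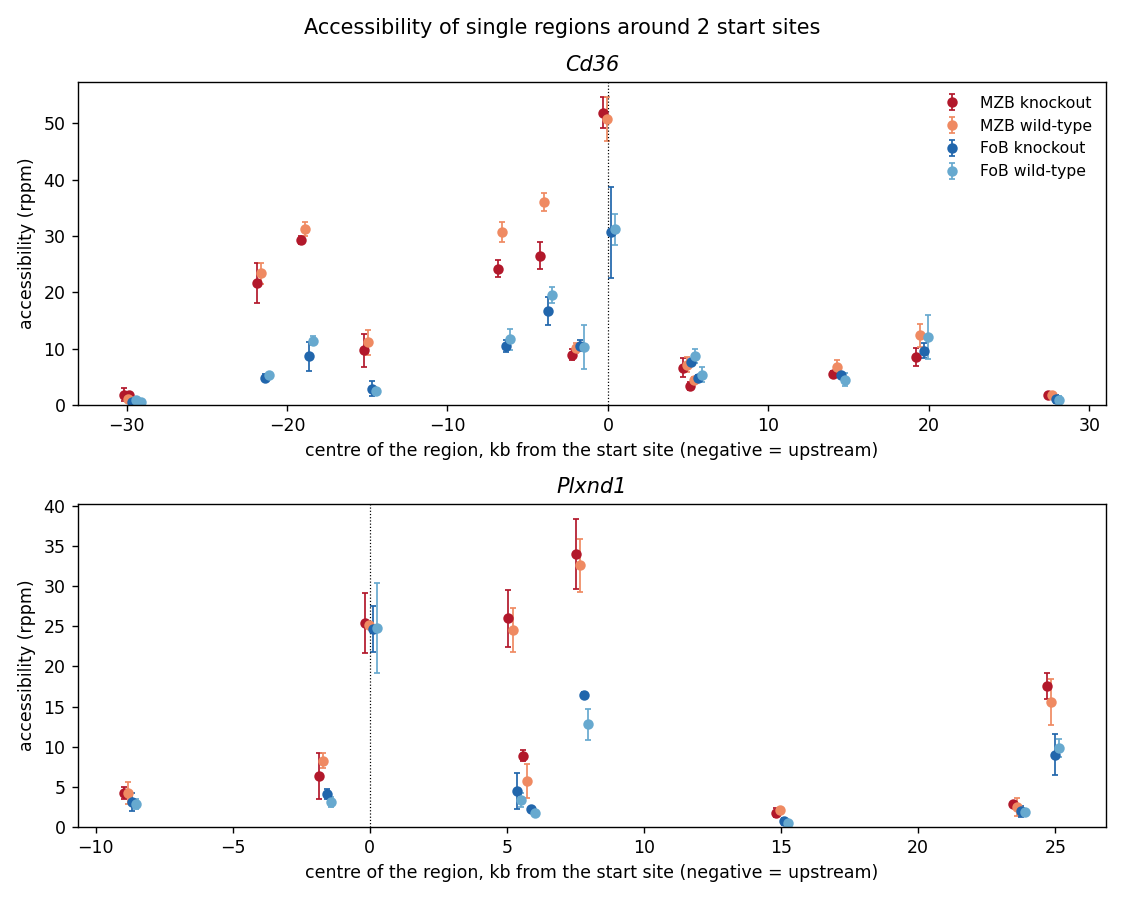
Accessibility in rppm (vertical axes, starting at 0) of single regions by the distance of their centre from the start site in kb (horizontal axes, negative is upstream) for Cd36 and Plxnd1, with means and SD of 3 libraries per group. At Cd36 the MZB groups lie above the FoB groups at the start site and at most regions upstream. These upstream regions are still inside the annotated span of Cd36, which extends beyond this start site. An exception is the region centred at -1864 bases, with 10.19 rppm in MZB WT and 10.34 rppm in FoB WT. At Plxnd1 the 4 groups meet at the start site and separate by cell type at most regions downstream. The wild-type groups also separate at the Plxnd1 region centred at -1617 bases, upstream.

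Plxnd1 (gene ID 67784, chr6:115954811-115995339) showed another arrangement, with no difference detected at the start site and a large one within the gene. The start site region, chr6:115994512-115995389, is its most open on average and covers the G and C rich promoter above. It had 24.3, 22.4 and 29.6 rppm in MZB KO, 25.1, 25.0 and 25.2 rppm in MZB WT, 22.1, 24.1 and 27.7 rppm in FoB KO and 30.7, 24.0 and 19.6 rppm in FoB WT. The groups overlapped throughout (log2 fold change 0.04, 95% interval -0.24 to 0.33, in wild-type cells; limma, adjusted p = 0.844). At chr6:115989485-115989965, 5280 bases downstream, the levels were 23.1, 30.0 and 24.8 rppm in MZB KO, 22.9, 22.9 and 27.7 rppm in MZB WT, 2.07, 5.15 and 6.35 rppm in FoB KO and 4.38, 3.08 and 2.63 rppm in FoB WT. This was a 6.56-fold difference in wild-type cells (log2 fold change 2.71 ± 0.23; limma, adjusted p = 1.30e-11) and a 5.68-fold difference in the knockout (2.51 ± 0.23; limma, adjusted p = 1.05e-10). Of the 9 Plxnd1 regions, 6 were called higher in wild-type MZB and 4 in knockout MZB, and 0 lower in either. A region named after its values were seen, chr6:115996500-115996744, lay 1161 bases outside the gene, upstream. It was called higher in wild-type MZB (log2 fold change 1.27 ± 0.27; limma, adjusted p = 2.61e-04) and not in knockout MZB (0.48 ± 0.27; limma, adjusted p = 0.172). The difference between these contrasts was -0.79 (95% interval -1.555 to -0.023; limma, adjusted p = 0.798).

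Myof (gene ID 226101, chr19:37899036-38043577) was most open within the gene at chr19:38025555-38026578. That region had 45.3, 48.3 and 46.1 rppm in MZB KO, 42.6, 43.1 and 48.5 rppm in MZB WT, 38.9, 29.0 and 34.1 rppm in FoB KO and 32.9, 32.2 and 28.9 rppm in FoB WT. The MZB libraries were the higher ones in each genotype, by a log2 fold change of 0.51 ± 0.11 in wild-type cells (limma, adjusted p = 3.78e-04). Deeper in the gene, at chr19:37969945-37970736, the levels were 14.5, 20.5 and 18.3 rppm in MZB KO, 21.3, 17.0 and 13.7 rppm in MZB WT, 3.93, 4.12 and 3.81 rppm in FoB KO and 4.65, 4.53 and 5.25 rppm in FoB WT. The groups were far apart by cell type and overlapped by genotype within MZB, with log2 fold changes of 1.73 ± 0.19 between wild-type cells (limma, adjusted p = 4.68e-09) and 2.02 ± 0.19 between knockout cells (limma, adjusted p = 1.65e-10). At the start site, chr19:38042967-38044109, under the promoter printed above, the levels were 16.1, 15.8 and 13.9 rppm in MZB KO, 11.9, 18.9 and 16.2 rppm in MZB WT, 12.2, 10.9 and 8.64 rppm in FoB KO and 11.5, 10.8 and 9.79 rppm in FoB WT. The contrast there was smaller, with a log2 fold change of 0.51 ± 0.17 in wild-type cells (limma, adjusted p = 0.0188) and 0.52 ± 0.17 in the knockout (limma, adjusted p = 0.018), and the groups were apart in each genotype. Of 17 tested Myof regions, 9 were higher and 1 lower in MZB in each genotype.

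Asb2 (gene ID 65256, chr12:103321142-103356001) combined a very open region shared by both cell types with weak regions open mainly in MZB. The shared region, chr12:103343285-103343972, had 49.7, 53.6 and 47.9 rppm in MZB KO, 41.8, 50.0 and 46.0 rppm in MZB WT, 58.6, 61.6 and 61.8 rppm in FoB KO and 52.8, 54.4 and 45.4 rppm in FoB WT. The wild-type groups overlapped (log2 fold change -0.14 ± 0.10; limma, adjusted p = 0.267), and in the knockout MZB were lower (-0.27 ± 0.10; limma, adjusted p = 0.0345). With edgeR and TMM the wild-type difference was called lower as well (log2 fold change -0.33, adjusted p = 0.00634), as it was with DESeq2 (-0.32, adjusted p = 0.0355). At chr12:103361278-103361601, 5277 bases outside the gene, the levels were 4.20, 4.73 and 7.68 rppm in MZB KO, 6.48, 3.99 and 6.53 rppm in MZB WT, 1.04, 0.618 and 0.763 rppm in FoB KO and 0.274, 0.675 and 0.478 rppm in FoB WT. These FoB levels rest on 11 reads in the 3 FoB KO libraries and 10 reads in the 3 FoB WT libraries. The log2 fold change was 2.65 ± 0.34 in wild-type cells (limma, adjusted p = 9.34e-08) and 2.18 ± 0.34 in the knockout (limma, adjusted p = 3.74e-06). Of 10 Asb2 regions, 6 were higher in wild-type MZB, and 4 were higher and 1 lower in knockout MZB.

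Fcrl5 (gene ID 329693, chr3:87435777-87500678) was the gene whose contrast was called at its start site without being called in its wild-type sum. The start site region, chr3:87435413-87436027, was singled out because it covers the printed promoter. It had 23.6, 27.8 and 28.1 rppm in MZB KO, 23.5, 21.0 and 19.0 rppm in MZB WT, 18, 14.4 and 16.0 rppm in FoB KO and 13.4, 16.0 and 14.1 rppm in FoB WT. MZB libraries were above FoB libraries in each genotype, by log2 fold changes of 0.53 ± 0.14 in wild-type cells (limma, adjusted p = 0.00276) and 0.70 ± 0.14 in the knockout (limma, adjusted p = 1.45e-04). The most open region, chr3:87506378-87507316, lay 5700 bases outside the gene and had 40.4, 44.8 and 39.3 rppm in MZB KO, 35.4, 37.8 and 35.1 rppm in MZB WT, 33.1, 39.3 and 29.2 rppm in FoB KO and 38.3, 37.5 and 39.2 rppm in FoB WT. It was called higher in MZB between knockout cells (log2 fold change 0.30 ± 0.11; limma, adjusted p = 0.0359) and not between wild-type cells (-0.09 ± 0.11; limma, adjusted p = 0.584). The difference between these contrasts was 0.38 (95% interval 0.07 to 0.70; limma, adjusted p = 0.765). A region 11768 bases outside the gene, chr3:87512446-87512861, had the smallest wild-type p, with 14.2, 15.8 and 11.8 rppm in MZB KO, 15.9, 16.2 and 16.5 rppm in MZB WT, 8.28, 8.45 and 7.88 rppm in FoB KO and 11.5, 9.06 and 8.60 rppm in FoB WT. The MZB libraries were the higher ones in both genotypes, with a log2 fold change of 0.72 ± 0.17 in each. Of 13 Fcrl5 regions, 4 (30.8%) were higher in wild-type MZB and 5 (38.5%) in knockout MZB, against 24.2% and 23.2% of all tested regions.

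Fcrl1 (gene ID 229499, chr3:87376353-87403967), on the same chromosome, moved in both directions. Its most open region, chr3:87401241-87401958, had 23.6, 30.6 and 29.0 rppm in MZB KO, 26.2, 29.0 and 32.3 rppm in MZB WT, 38.1, 35.2 and 33.3 rppm in FoB KO and 40.3, 36.2 and 39.9 rppm in FoB WT. Here MZB fell below FoB in each genotype (log2 fold change -0.41 ± 0.12 in wild-type cells; limma, adjusted p = 0.00588, and 0.0717 under quantile normalisation). At chr3:87387508-87387767, within the gene, the levels were 4.43, 3.79 and 5.32 rppm in MZB KO, 2.97, 6.11 and 6.53 rppm in MZB WT, 2.48, 1.85 and 2.03 rppm in FoB KO and 0.821, 2.22 and 1.43 rppm in FoB WT. This weak region rose in MZB (log2 fold change 1.51 ± 0.32 in wild-type cells; limma, adjusted p = 2.70e-04) and did so also in the knockout (0.93 ± 0.32; limma, adjusted p = 0.0227). Of 9 Fcrl1 regions, 3 (33.3%) were higher and 2 (22.2%) lower in wild-type MZB, against 24.2% and 11.4% of all tested regions. In knockout MZB 2 (22.2%) were higher and 1 (11.1%) lower, against 23.2% and 9.47%.

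Tm6sf1 (gene ID 107769, chr7:81858718-81884079) held the only region of the 87 that was called in a knockout comparison, at chr7:81880776-81881427, which also lies within the gene body of Hdgfl3. It had 28.2, 21.5 and 22.8 rppm in MZB KO, 20.5, 31.6 and 25.2 rppm in MZB WT, 2.90, 3.50 and 1.53 rppm in FoB KO and 5.48, 5.78 and 6.92 rppm in FoB WT. The MZB groups overlapped, whereas every FoB KO library lay below every FoB WT library. The knockout effect in FoB was a log2 fold change of -1.11 ± 0.21 (limma, adjusted p = 0.00282), where 0.539% of all regions were called in either direction. That call was lost when the 2 FoB groups were fitted alone (adjusted p = 0.12) and with DESeq2 (adjusted p = 0.125). The cell type contrast was 3.96-fold in wild-type cells (log2 fold change 1.99 ± 0.21; limma, adjusted p = 1.12e-09) and 8.11-fold in the knockout (3.02 ± 0.21; limma, adjusted p = 5.73e-14). The knockout effects in MZB and FoB differed by 1.03 ± 0.29 on the log2 scale (95% interval 0.44 to 1.62), with an adjusted p of 0.625. The most open Tm6sf1 region, chr7:81849062-81850018, had 27.5, 38.2 and 31.6 rppm in MZB KO, 27.5, 37.0 and 30.2 rppm in MZB WT, 34.1, 34.0 and 27.5 rppm in FoB KO and 23.0, 29.2 and 28.2 rppm in FoB WT. All groups overlapped there (wild-type log2 fold change 0.23 ± 0.13; limma, adjusted p = 0.184).

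Most of the regions that distinguished MZB from FoB in wild-type cells were called in the knockout as well. Of the 40 regions higher in wild-type MZB, 33 (82.5%) were also higher in knockout MZB, and these were 86.8% of the 38 knockout calls. Over all regions the same shares were 72.6% and 75.8%. The 7 regions called in wild-type cells alone, 2 at Asb2, 2 at Plxnd1 and 1 each at Myof, Fcrl1 and Fcrl5, had knockout log2 fold changes of 0.19 to 0.95, all above 0. The 5 called in knockout cells alone were 2 at Fcrl5 and 1 each at Myof, Cd36 and Tm6sf1, and 3 of these had a wild-type value above 0. Of the 4 regions lower in wild-type MZB, 3 were also lower in the knockout, and 0 regions were called in opposite directions. A call missing in one genotype does not show that the genotypes differ, and none of these 12 regions was called for the difference. Across the 87 regions, the wild-type and knockout contrasts had a Pearson r of 0.888 (0.806 over all tested regions), given as a description since regions share their libraries. Over the 40 wild-type calls the median log2 fold change was 1.30 in wild-type cells and 1.07 in the knockout, but over the 38 knockout calls it was 1.23 in wild-type cells and 1.18 in the knockout, so each median was higher in the genotype used to choose the regions than the other choice gave.

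**Figure D3:**
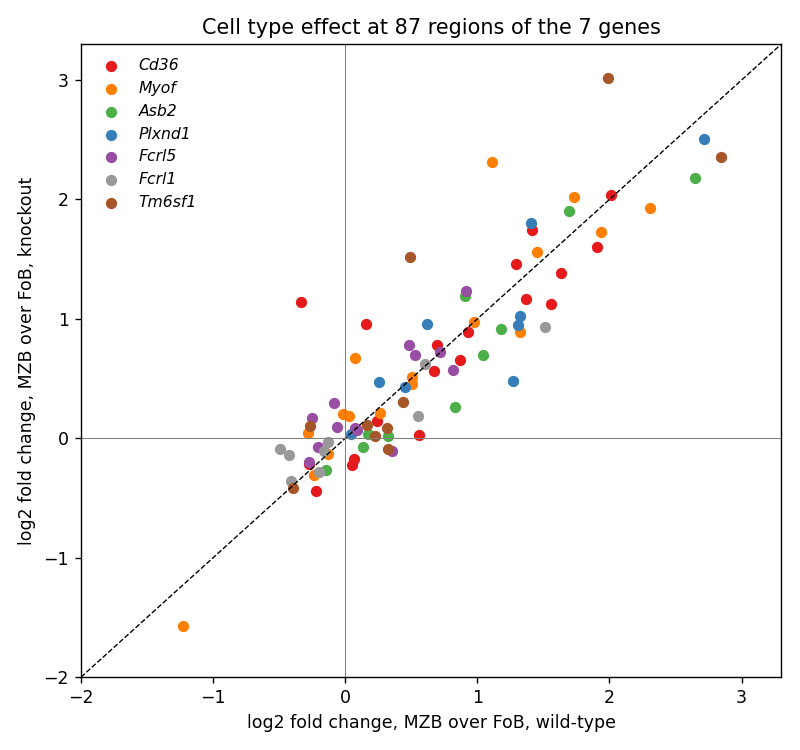
Log2 fold change of MZB over FoB in knockout cells (vertical axis) against that in wild-type cells (horizontal axis) for the 87 tested regions, coloured by gene, with the dashed line marking equal values. Most points lie near the line (r = 0.888), and the Tm6sf1 region at 1.99 in wild-type cells and 3.02 in knockout cells lies well above it.

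Within MZB, loss of LSD1 changed none of the 7 sums and none of the 87 regions past the threshold. Over all regions 0.777% were called, and over all genes 3.01%. At an unadjusted p under 0.05, 9 of the 87 regions passed (5 higher and 4 lower), where 13.3% of all regions did, and edgeR and DESeq2 called 0 as well. In 10 regions every MZB KO library lay above every MZB WT library and in 8 below, against 8.13% and 9.55% of all regions. The median log2 fold change was 0.02, beside -0.02 over all regions, and the median half-width of a region's 95% interval was 0.42. A missing call does not show that accessibility was unchanged.

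**Figure D4:**
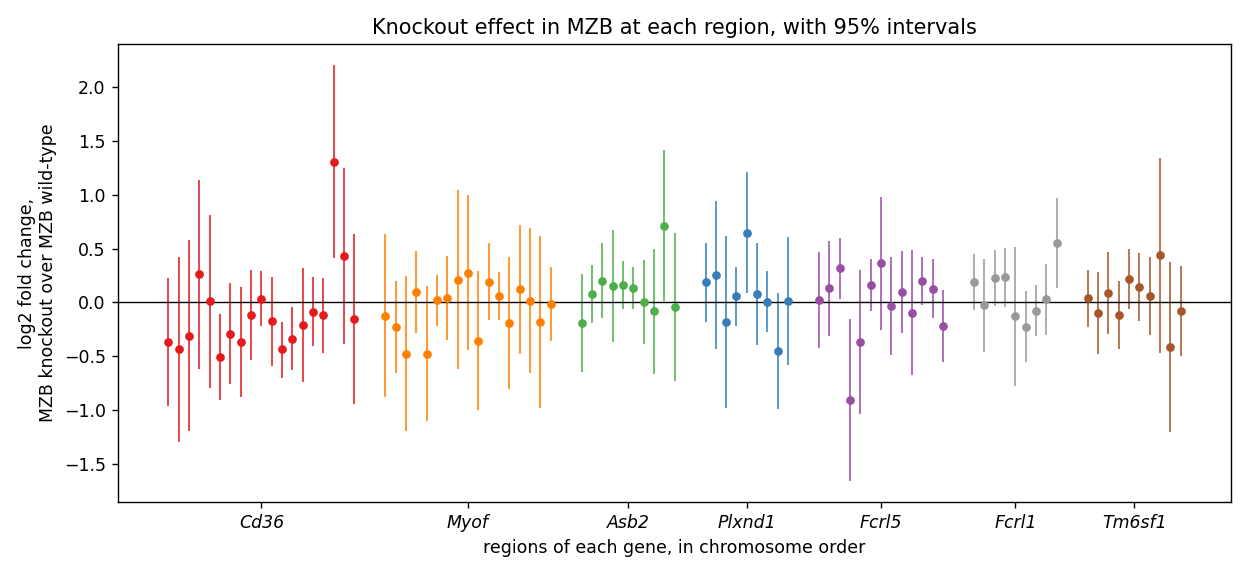
Log2 fold change of MZB KO over MZB WT (vertical axis) with 95% intervals from the limma fit at each of the 87 tested regions, in chromosome order within each gene. All but 9 intervals include 0, and the values run between -0.91 and 1.30.

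Cd36 came nearest to a change. Its sums in MZB KO (210.4 to 214.2 rppm) all lay below those in MZB WT (230.0 to 250.7 rppm), where 10.9% of genes were apart in that direction. The log2 fold change was -0.18 ± 0.07 (95% interval -0.33 to -0.02), with an adjusted p of 0.206 (limma; 0.1003 to 0.475 over the alternatives). The Cd36 region with the smallest p, chr5:17839623-17839939, centred at -3885 bases from the start site, had 25.4, 24.9 and 29.3 rppm in MZB KO, 36.4, 34.3 and 37.3 rppm in MZB WT, 16.8, 19.2 and 14.2 rppm in FoB KO and 18.6, 21.1 and 18.9 rppm in FoB WT. All MZB KO libraries were below all MZB WT libraries and above all FoB libraries. The log2 fold change was -0.44 ± 0.13 (limma, adjusted p = 0.0993), and it was called only under quantile normalisation (-0.50, adjusted p = 0.0296), with adjusted p-values of 0.0296 to 0.554 over the alternatives. Between cell types the same region was higher in MZB in wild-type cells (0.87 ± 0.13; limma, adjusted p = 1.37e-06) and in the knockout (0.66 ± 0.13; limma, adjusted p = 1.11e-04). A weak Cd36 region at chr5:17865293-17865492, named after its values were seen because it had the highest knockout value of the 87, had 1.40, 1.58 and 2.36 rppm in MZB KO, 1.35, 0 and 0.311 rppm in MZB WT, 0.414, 0.412 and 0.763 rppm in FoB KO and 0.548, 0.675 and 0.716 rppm in FoB WT. It rests on 19 reads in MZB KO and 6 in MZB WT, and its adjusted p was 0.165 (limma).

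In the other 6 genes, the region with the smallest p in MZB also failed to pass, with adjusted p-values between 0.221 and 0.529. For Asb2 it was chr12:103359379-103359792, with 6.76, 8.83 and 4.73 rppm in MZB KO and 4.05, 2.92 and 4.67 rppm in MZB WT (log2 fold change 0.71 ± 0.35; limma, adjusted p = 0.363). For Plxnd1 it was chr6:115989113-115989271, with 9.56, 8.83 and 8.28 rppm in MZB KO and 7.56, 3.46 and 6.22 rppm in MZB WT (0.65 ± 0.28; limma, adjusted p = 0.287). In both of these the knockout libraries were the higher ones without overlap. For Fcrl1 it was chr3:87411150-87411565, with 6.06, 9.15 and 7.98 rppm in MZB KO and 4.59, 5.32 and 5.29 rppm in MZB WT (0.55 ± 0.21; limma, adjusted p = 0.221). For Fcrl5 it was chr3:87471848-87472135, with 0.933, 0.946 and 1.48 rppm in MZB KO and 4.32, 1.60 and 2.18 rppm in MZB WT (-0.91 ± 0.37; limma, adjusted p = 0.265). The groups were apart in both, higher in MZB KO at Fcrl1 and lower at Fcrl5, where the levels are close to the floor. For Myof it was chr19:37959103-37959344, with 3.27, 5.05 and 5.32 rppm in MZB KO and 5.94, 6.11 and 7.15 rppm in MZB WT (-0.47 ± 0.31; limma, adjusted p = 0.529). For Tm6sf1 it was chr7:81860927-81861409, with 21.5, 20.5 and 22.2 rppm in MZB KO and 15.1, 20.5 and 19.9 rppm in MZB WT (0.22 ± 0.14; limma, adjusted p = 0.520). The Myof groups did not overlap, with MZB KO lower, and the Tm6sf1 groups met at about 20.5 rppm.

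Of the sums, Asb2 and Fcrl5 were also apart in MZB without passing the test, both higher in MZB KO (11% of genes were). Asb2 had a log2 fold change of 0.12 ± 0.07 (95% interval -0.01 to 0.26; limma, adjusted p = 0.346) and Fcrl5 of 0.11 ± 0.06 (95% interval -0.01 to 0.23; limma, adjusted p = 0.334). Myof had a log2 fold change of 0.00 in MZB, with an interval of -0.14 to 0.14, and Plxnd1, Fcrl1 and Tm6sf1 had 0.08, 0.08 and 0.03.

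Within FoB, loss of LSD1 changed 1 of the 7 sums, where 1.45% of genes were called. Asb2 had 158.9, 187.0 and 176.1 rppm in FoB KO, against 132.8, 152.4 and 136.1 rppm in FoB WT. Every knockout library was above every wild-type library (8.17% of genes were apart in that direction, and 8.25%, as was Fcrl5, in the other), and Asb2 rose by a log2 fold change of 0.31 ± 0.07 (limma, adjusted p = 0.0137). The adjusted p was 0.106 without FoB KO replicate 2, 0.0700 without FoB WT replicate 1 and 0.0956 without FoB WT replicate 3. No single Asb2 region was called in FoB, the smallest adjusted p being 0.141. Among the 87 regions, 5 had all FoB KO libraries above all FoB WT libraries and 7 below (7.18% and 7.51% of all regions).

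The knockout effect in MZB minus that in FoB passed the test at 0 of the 87 regions and in 0 of the 7 sums, where 0.00111% of all regions and 0.0123% of genes were called. At an unadjusted p under 0.05, 8 of the 87 regions passed, 7 above 0 and 1 below (6.22% of all regions), and edgeR and DESeq2 called 0. The median half-width of a region's 95% interval for this difference was 0.60, and the smallest adjusted p was that of the Tm6sf1 region above. For the sums of Asb2 and Cd36 the differences were -0.19 (95% interval -0.38 to 0.01; limma, adjusted p = 0.744) and -0.04 (-0.26 to 0.17; limma, adjusted p = 0.963).

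Genes related to the 7 by family or by cell type gave the setting. Among 26 of 35 paralogs that had a region (scavenger receptors, ferlins, other Asb genes, plexins and other Fc receptor-like genes), 39 of 166 regions were higher and 17 lower in wild-type MZB, with a median log2 fold change of 0.25. Over all tested regions 24.2% were higher and 11.4% lower, with a median of 0.18, so the paralogs lay close to these shares. Plxna2, another plexin, had the smallest p, with a mean of 24.3 ± 1.6 rppm in MZB WT and 5.98 ± 0.63 rppm in FoB WT (SD, n = 3 each), and Scarb2, a relative of Cd36, moved in both directions. A Scarb2 region outside the gene had 3.55 ± 0.65 rppm in MZB WT and 15.0 ± 1.6 rppm in FoB WT, whereas one within the gene had 17.2 ± 3.0 rppm in MZB KO and 2.86 ± 0.99 rppm in FoB KO, the smallest p of the paralogs between knockout cell types (log2 fold change 2.43 ± 0.22; limma, adjusted p = 4.06e-11). In 20 of 21 other marginal zone genes that had a region, 149 of 376 regions were higher and 50 lower (median 0.35), with a Cd9 region at 77.8 ± 6.9 rppm in MZB WT and 19.7 ± 3.1 rppm in FoB WT. In MZB, loss of LSD1 was called at 0 of the 166 paralog regions and 0 of the 376 marginal zone regions, where 0.777% of all regions were called. In FoB, 1 region of the marginal zone genes was called, near Cd9, with 6.13 ± 0.67 rppm in FoB KO and 3.17 ± 0.47 rppm in FoB WT (log2 fold change 0.86 ± 0.20; limma, adjusted p = 0.0356).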

How the data were processed

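The authors deposited 1 table of reads per region scaled to a library total of 1000000 reads over the listed regions (RPM, named rppm), 1 column per library. The submitters' processing notes name mm10 as the build, Bowtie 1.1.1 and MACS2. They state no read filter, Tn5 offset or rule for merging peaks. Every value was a whole number of reads within a tolerance of 0.01, which gave the depth per library and the whole reads used for the count tests.

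Regions were assigned to protein-coding genes of the RefSeq table for GRCm38.p6. A region in several gene bodies went to the gene it overlapped most, and on a tie to the shortest gene. By this rule the region shared with Hdgfl3 was counted for Tm6sf1. The 7 genes, the gene lists and the rule for named regions were chosen with earlier results of these data known. Tested were regions that reached 1 rppm in 3 or more of the 12 libraries (89782, with 4379 left out) by limma 3.58.1 in R 4.3.3 on log2(rppm + 0.5), with 1 coefficient per group, a mean-variance trend, and two-sided p-values adjusted by Benjamini-Hochberg over all tested regions (threshold 0.05). Gene sums were tested in the same way over 16289 genes. Fold changes on this scale understate low regions. The 5 comparisons share groups. In simulated data with the same dispersion at every region, changes were planted only in regions with a mean above 5 rppm. This fit recovered nearly all of those changed by 2-fold or more, and recovery at weaker regions was not tested. It also called more unchanged, mostly weak, regions than its threshold implies, which edgeR did less. Counts over the follicular gene lists are not reported here. Named for each gene were the most open region, the region with the smallest p between wild-type cell types, that with the smallest p in MZB KO over MZB WT, and any region called in a knockout comparison.

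Alternatives were pseudocounts of 0.1 and 2, no filter, the replicate number as a block, quantile normalisation, robust variance shrinkage, each library left out, the compared groups alone, edgeR 4.0.16 quasi-likelihood with and without TMM and DESeq2 1.42.0 on the whole reads, and regions within 10 kb.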

Additional observations from a re-analysis of the deposited data

Results flagged for a closer look

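The summed accessibility of Fcrl5 was apart between genotypes in opposite directions in the cell types, without passing the test in either. In MZB, every knockout library (174.9 to 196.5 rppm) lay above every wild-type library (168.2 to 169.9 rppm), and in FoB every knockout library (141.3 to 152.5 rppm) lay below every wild-type library (153.9 to 161.4 rppm). The knockout effects were 0.11 in MZB (limma, adjusted p = 0.334) and -0.09 in FoB (limma, adjusted p = 0.612). The difference of the knockout effects was 0.20 on the log2 scale (95% interval 0.03 to 0.37), with a limma adjusted p of 0.693. No single region of the 87 showed such a split without overlap, where 0.51% of all tested regions and 0.553% of all tested gene sums did.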

How the results depend on the processing

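Of the 87 regions, the number higher in wild-type MZB was 40 as reported, 26 under quantile normalisation, 26 with DESeq2 and 36 to 40 when 1 library was left out, and the number lower was 4, 12 with edgeR and TMM, and 3 to 4. In the knockout the number higher was 38, 25 with DESeq2 and 31 to 38, and the number lower was 4, 7 with edgeR and TMM, and 2 to 4 (2 without MZB KO replicate 1 or 3 or FoB KO replicate 1 or 2). The count for MZB KO over MZB WT was 0, 1 under quantile normalisation, and 0 without any 1 library. The count for FoB was 1, and 0 with the FoB groups alone and 0 with DESeq2, and 1 in each leave-one-out fit. The difference of effects gave 0 throughout. Calls among the sums numbered 11, and 10 to 12 with 1 library left out. The cause was not tested. Of 772 alternative values for 38 named results, 762 kept their side of the threshold, of which 9 changed sign without being called in either setting, 4 gained a call and 6 lost one.

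The replicate block left the counts at 0, 1, 40 and 38. The deviations of same-numbered libraries from their group means correlated at -0.0934 to 0.1338 over 18 pairs, of which 2 were above 0.1. Pairs with different numbers ran from -0.209 to 0.1952, both between FoB KO and FoB WT libraries. These values show no clear pairing by number, and with 3 libraries per group they cannot exclude one. DESeq2 gave no adjusted p for 8 regions in MZB and 10 in FoB. Depth limits the weakest regions, where 3 reads stand for up to 0.946 rppm. In a sum, the gene-level tests were not repeated with edgeR or DESeq2.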

Other observations

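Genes outside the 7 followed the same order of libraries closely. Among 9253 genes with at least 3 tested regions, the summed levels of Sorbs3, Cd33, Caln1, Rtp4 and Lonrf2 had the highest Pearson r over the 12 libraries with the mean pattern of the 7 genes, between 0.979 and 0.973. Cd33, a sialic acid-binding receptor of the myeloid lineage, averaged 16.6 rppm in MZB KO, 10.5 in MZB WT, 4.6 in FoB KO and 3.0 in FoB WT. Rtp4, an interferon-induced gene, averaged 57.4 rppm in MZB KO, 46.9 in MZB WT, 32.2 in FoB KO and 26.8 in FoB WT. Of the 7 genes, Plxnd1 had an r of 0.906 with their common pattern, Asb2 of 0.671 and Fcrl1 of -0.36, and each of the 7 is itself part of that pattern. The libraries fall into 2 cell types, which sets much of any such r.

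Of genes active in follicular B cells, only the regions with the smallest p are given, and they do not describe such genes as a group. Between wild-type cells, a region of Fcer2a, which encodes CD23, averaged 26.5 ± 5.1 rppm in MZB WT and 63.4 ± 5.5 rppm in FoB WT, whereas one of Bach2, a repressor of plasma cell fate, averaged 27.96 ± 1.15 rppm in MZB WT and 5.83 ± 0.42 rppm in FoB WT (SD, n = 3 each). Between genotypes, a weak region outside Cd55, which encodes a complement regulator, fell in both cell types. It had 0.302 ± 0.296 rppm in MZB KO, against 3.79 ± 0.77 rppm in MZB WT (log2 fold change -2.47 ± 0.39; limma, adjusted p = 2.95e-04). The same region had 0.429 ± 0.182 rppm in FoB KO, against 4.62 ± 2.42 rppm in FoB WT (-2.38 ± 0.39; limma, adjusted p = 5.16e-04). A region within Foxp1, a transcription factor gene of B cells, fell to 14.5 ± 1.9 rppm in MZB KO, against 23.5 ± 1.6 rppm in MZB WT (-0.68 ± 0.13; limma, adjusted p = 0.00377). At 5 markers of immature and transitional B cells, the regions summed to 468.8 to 495.3 rppm in MZB KO and 362.6 to 373.2 rppm in MZB WT. There 6 of 57 regions were called higher and 0 lower in MZB KO, where 0.777% of all regions were called in either direction. The part of this in the results on the 7 genes was not tested.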
